A study of Mus musculus with 11 samples.

Results

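DnaJ cochaperones, also called J proteins or Hsp40 proteins, are the partners that hand substrates to Hsp70 chaperones. Probes with a single gene symbol of the form Dnaja, Dnajb or Dnajc followed by a number were taken, leaving out Dnajb1, which gave 53 of the 34999 probes on the array and 43 genes. By the letter in the symbol, class A holds 4 probes, class B 16 and class C 33. The tissue was hypothalamus and cerebellum of wild-type female SV/129 mice aged 10 weeks. One group of 6 mice was fasted for 16 hours from the start of the dark phase and the other 6 mice kept their chow, and all mice had water. RNA was pooled by feeding state and region, so that each of the 4 pools stands for 6 mice, and each pool was hybridised to 3 single-colour CodeLink whole genome arrays. One array of the fasted cerebellum was discarded by the submitters, which left 2 arrays of that pool and 3 of each other pool, 11 in all.

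A J domain with a conserved histidine-proline-aspartate motif stimulates the ATPase of Hsp70, and with it the locking of Hsp70 onto a client protein. Class A proteins carry a glycine-rich stretch and a zinc-finger region beside the J domain, class B proteins the glycine-rich stretch without the zinc finger, and class C proteins share the J domain only. Members work in the cytosol, the endoplasmic reticulum (ER), mitochondria, the nucleus and on vesicles. In neurons, Dnajc5 (cysteine string protein) guards synaptic proteins and Dnajc6 (auxilin) helps to uncoat clathrin-coated vesicles.

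The deposited values are ratios to the median of the 3 fed arrays of the same region. They keep no signal intensity, so levels of different probes, or of the 2 regions, cannot be set against each other, and the labelled tissue could not be checked by the level of its markers. Every array was first scaled to a median of 1, and a change is the log2 value fasted minus fed ± SE, from a limma fit of all 11 arrays. Called means an adjusted p under 0.05 (Benjamini-Hochberg over 34999 probes), and rose and fell are written of called probes only. Arrays of a group repeat 1 pool, so their spread is technical, mice do not enter it, and the tests compare pools. In whole tissue, fewer cells of a type and less RNA per cell cannot be told apart. Over the DnaJ probes, the SD between repeat arrays had medians between 0.07 and 0.08 log2, against 0.06 to 0.09 over all probes.

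In the fasted hypothalamus the DnaJ probes moved about as much as the other probes of the array. Of 53 probes 3 rose and 4 fell, 13.2% against 14.2% of all probes (6.34% of all probes rose and 7.89% fell), and their median change was -0.03 against 0.00 over all probes. Arrays of the fasted and fed pools did not overlap for 19 probes (35.8%, against 37.3% of all probes). In the fasted cerebellum 4 rose and 10 fell, 26.4% against 20.9% of all probes, with a median change of -0.06 against 0.01. The 10 lower probes stand against 11.2% of all probes called lower, and the 4 higher ones against 9.66% called higher. Arrays of the 2 pools did not overlap for 32 probes (60.4%, against 50% of all probes). The share called in hypothalamus was thus near that of the array. In cerebellum the 14 called probes include both probes of Dnajc10 and both of Dnajc12, the latter of opposite sign. Whether the share there differs from that of the array was not tested. Called in both regions were 4 probes, of which 1 fell in both and 3 moved in opposite directions, and 36 of the 53 were called in neither.

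Without 1 array the count in hypothalamus was 1 without fed replicate 1, fed replicate 2 or fasted replicate 3, 0 without fasted replicate 2 (13 at an unadjusted p under 0.05, limma), 4 without fed replicate 3 and 3 without cerebellum fed replicate 1. Calls over all probes dropped too, to between 5.54% and 6.98% in the fits with 0 or 1 DnaJ call. They were 15.5% without fed replicate 3 and 11% without cerebellum fed replicate 1. The DnaJ count was 0 (limma; 14 at an unadjusted p under 0.05) when only the hypothalamus arrays were fitted, with 6.31% of all probes called. In cerebellum the count fell to 8 of 53 without fasted replicate 2, where 16.2% of all probes were called. It was between 10 and 14 without any other single array. With quantile normalization 0 DnaJ probes were called in either region (limma; 1 and 7 at an unadjusted p under 0.05). Of all probes it called 0.0914% in hypothalamus and 1.26% in cerebellum. Ratios to the fed median hold the fed arrays near 1. Quantile normalization gives every array the same spread, so its counts cannot decide whether a call would hold. The split depends on the scaling. The 75th percentile of the ratios was 1.00 to 1.06 on fed arrays and 1.06 to 1.09 on fasted arrays. Scaling to it lowers fasted arrays more than fed ones on average, and moved the median change of all probes to -0.11 and -0.12. With it, 1 DnaJ probe rose and 16 fell in hypothalamus and 2 rose and 22 fell in cerebellum. The share called of all probes also grew, to 26.4% in hypothalamus and 31.7% in cerebellum. Without scaling 2 rose and 5 fell, and 3 rose and 12 fell, with 16.3% and 21.1% of all probes called.

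**Figure D1:**
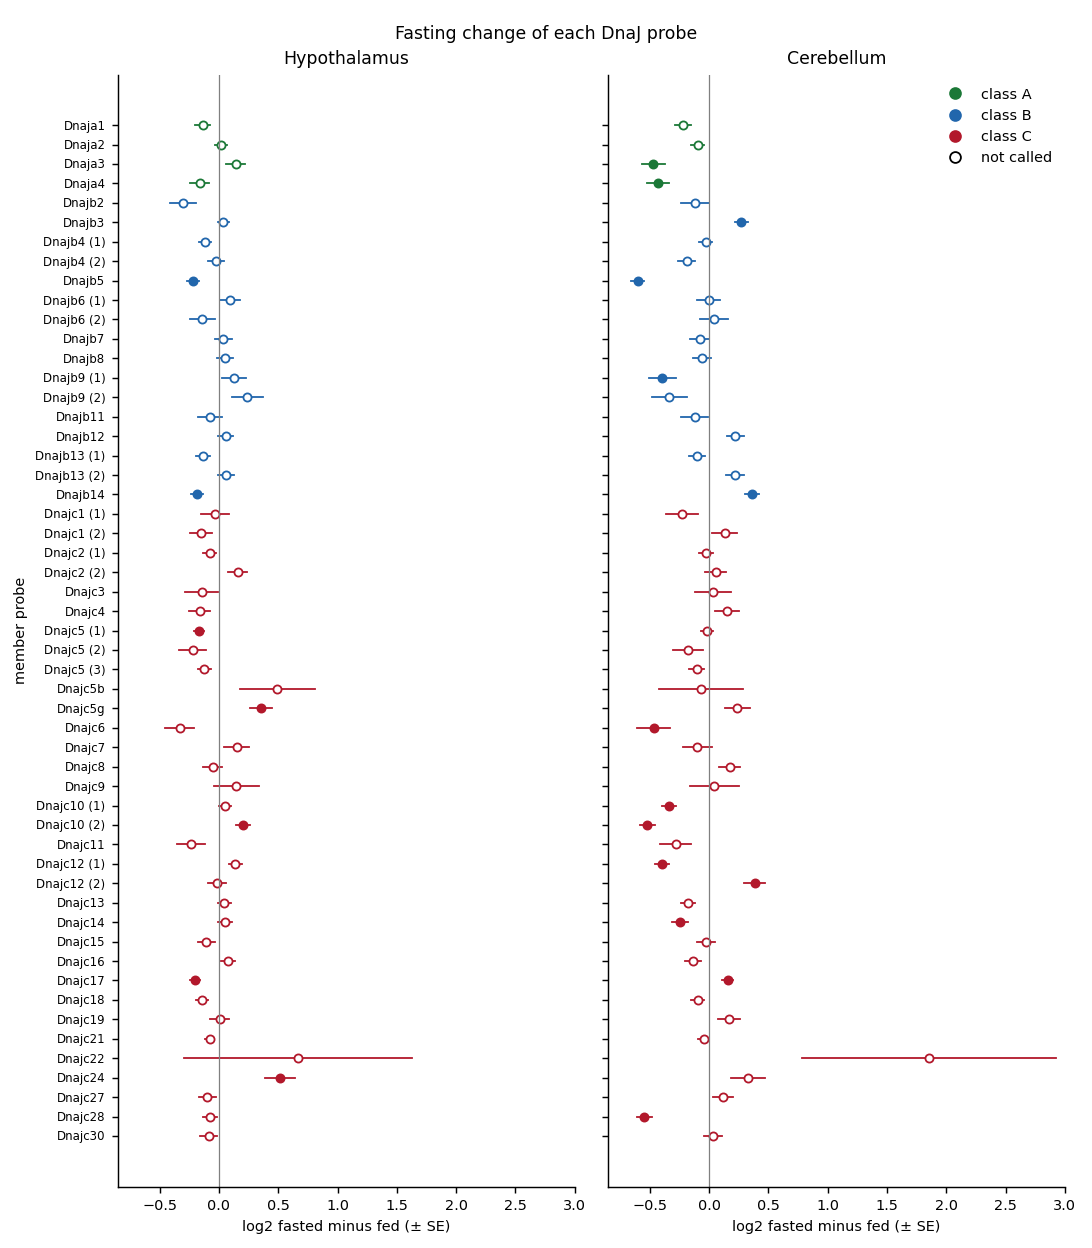
Change with fasting (log2 fasted minus fed, horizontal axis, bars ± SE of the limma fit) of the 53 DnaJ probes in hypothalamus (left) and cerebellum (right), one row per probe, coloured by class; filled points were called. Called changes lie between -0.22 and 0.51 in hypothalamus and between -0.60 and 0.38 in cerebellum, and Dnajc22 has the widest error in both.

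By class, 0 of 4 class A probes were called in hypothalamus (limma; 0 at an unadjusted p under 0.05, smallest adjusted p 0.168) and 2 fell in cerebellum, where all 4 lay below 0 with a median of -0.33. Of 16 class B probes, 2 fell and 0 rose in hypothalamus, and 2 rose and 2 fell in cerebellum (medians 0.01 and -0.07). Of 33 class C probes, 3 rose and 2 fell in hypothalamus, and 2 rose and 6 fell in cerebellum (medians -0.05 and -0.03). The class A group is only 4 probes, and no test of the class was made. Over all probes 6.34% were called higher and 7.89% lower in hypothalamus, and 9.66% and 11.2% in cerebellum. Over named genes, 1 probe each, the shares were 5.96% and 9.38% in hypothalamus, and 6.69% and 15.7% in cerebellum. The counts by class here and by role below stand against these shares, and most rest on 1 or 2 probes.

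The cytosolic members that bind substrates are Dnaja1, Dnaja2, Dnaja4, Dnajb2, Dnajb4, Dnajb5, Dnajb6 and Dnajc7, with 10 probes. In hypothalamus 1 fell and 0 rose, and in cerebellum 2 fell and 0 rose. Dnajb5, a neuronal and muscle Hsp40, had the most negative called change in both regions. On the cerebellum arrays its scaled ratio was 1.03, 0.982 and 1.00 in the fed pool and 0.680 and 0.643 in the fasted pool, which do not overlap. The change was -0.60 ± 0.06 (adjusted p = 0.000132, limma), or 0.659 of the fed level, lower on 2 of 2 fasted arrays. On the hypothalamus arrays Dnajb5 stood at 1.08, 1.00 and 0.970 fed and at 0.854, 0.893 and 0.866 fasted, again apart. That change was -0.22 ± 0.05 (adjusted p = 0.0229, limma). The call in hypothalamus was lost without 5 single arrays, each fasted replicate and fed replicates 1 and 2 of the hypothalamus (adjusted p up to 0.0736), while the one in cerebellum held without any 1 of the 11 arrays (0.000133 to 0.00184).

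Dnaja4, a class A cochaperone of the cytosol, stood at 1.04, 1.00 and 0.909 in the fed cerebellum and at 0.746 and 0.711 in the fasted one. All fasted values lay under all fed values, and the change was -0.43 ± 0.09 (adjusted p = 0.00938, limma; 0.0594 without fasted replicate 2). In hypothalamus Dnaja4 was not called at -0.16 ± 0.08. Dnaja1, a main class A partner of cytosolic Hsp70, stood at -0.14 ± 0.06 in hypothalamus and -0.22 ± 0.07 in cerebellum (adjusted p = 0.0532, limma), and Dnaja2 at 0.02 ± 0.05 and -0.10 ± 0.06. Dnajb2, which is rich in neurons, was at -0.30 ± 0.11 in hypothalamus (adjusted p = 0.094, limma) and -0.12 ± 0.12 in cerebellum. The Dnajb4 probes stood at -0.12 and -0.03 in hypothalamus and -0.03 and -0.19 in cerebellum, and Dnajc7, which also binds Hsp90, at 0.15 ± 0.11 and -0.10 ± 0.12, none of them called. Dnajb6, which holds back aggregation of polyglutamine proteins, had a pair of probes at 0.10 and -0.14 in hypothalamus and 0.00 and 0.04 in cerebellum, and none was called. Dnajb1, the classic heat-induced Hsp40 outside the 53 probes, was at -0.04 ± 0.05 and -0.03 ± 0.06.

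The promoters of a class B gene that fell in both regions and of one that was not called are shown because heat-induced chaperone genes are known to carry heat shock elements. They are the 250 bases before the start in RefSeq (GRCm38.p6), the most upstream one where a gene has several: Dnajb5 at chr4:42949617-42949866, plus strand and Dnajb6 at chr5:29735648-29735897, plus strand. Capitals mark CCAAT in Dnajb5 and a heat shock element in Dnajb6.
Dnajb5: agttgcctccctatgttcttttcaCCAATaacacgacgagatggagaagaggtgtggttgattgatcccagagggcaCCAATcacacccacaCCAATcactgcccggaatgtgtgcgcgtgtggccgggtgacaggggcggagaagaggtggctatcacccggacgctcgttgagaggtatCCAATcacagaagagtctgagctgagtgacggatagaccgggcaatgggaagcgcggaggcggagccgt
Dnajb6: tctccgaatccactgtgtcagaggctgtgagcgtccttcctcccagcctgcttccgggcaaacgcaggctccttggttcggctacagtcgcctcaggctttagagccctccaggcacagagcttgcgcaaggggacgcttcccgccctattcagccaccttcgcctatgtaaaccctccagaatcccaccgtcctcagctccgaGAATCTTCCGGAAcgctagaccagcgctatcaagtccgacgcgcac
Of the 43 genes 35 were matched in the promoter table. A window of 300 bases, from 250 before to 50 after the start, was searched on both strands. The heat shock element was searched as GAA followed by any 2 bases and TTC, then again any 2 bases and GAA. It was found in 1 of 35 genes, Dnajb6, and in 0.603% of the 32851 promoters of the table. CCAAT occurs 4 times in the Dnajb5 window, and at least once in 12 of the 35 genes (34.3%) and 37.4% of all promoters. The palindromic glucocorticoid response element was searched as GNACA followed by any 3 bases and TGTNC, and was found in 0 of 35 and in 0.475% of all promoters. A match describes letters only, and a missing one says no more than that the letters are not in the window.

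**Figure D2:**
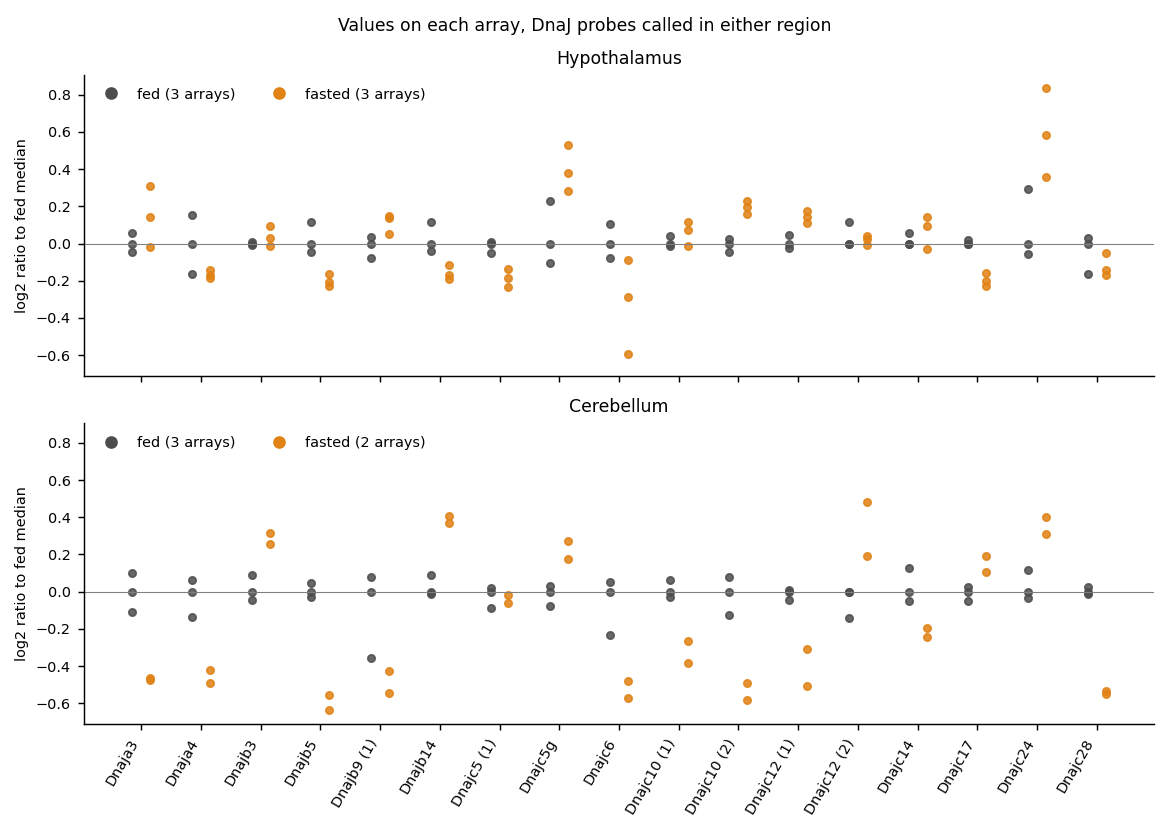
Scaled ratio to the fed median (log2, vertical axis) on each array for the 17 DnaJ probes called in hypothalamus or cerebellum, fed arrays in grey and fasted arrays in orange, hypothalamus above and cerebellum below; numbers in brackets tell probes of 1 gene apart. The fasted cerebellum arrays of Dnajb5 and Dnajc28 lie below all fed arrays, and those of Dnajb14 above them.

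The ER members listed here were Dnajb9, Dnajb11, Dnajb12, Dnajb14, Dnajc1, Dnajc3 and Dnajc10, with 10 probes. The list is not complete: Dnajc14, Dnajc16 and Dnajc18 are outside it and stand under the remaining members. In cerebellum 3 fell and 1 rose, and in hypothalamus 1 rose and 1 fell. Dnajc10 (ERdj5), which reduces disulfide bonds of misfolded ER proteins, has a pair of probes and both fell in cerebellum. The second probe stood at 1.00, 1.06 and 0.916 fed and at 0.668 and 0.711 fasted, a change of -0.52 ± 0.06 (adjusted p = 0.000573, limma). The first probe stood at 1.05, 1.00 and 0.980 fed and at 0.831 and 0.767 fasted, a change of -0.34 ± 0.06 (adjusted p = 0.00311, limma). Neither overlaps between the pools, and both calls held without any 1 of the 11 arrays. In hypothalamus the second probe stood at 0.968, 1.00 and 1.02 fed and at 1.17, 1.12 and 1.14 fasted. This rise of 0.20 ± 0.06 (adjusted p = 0.0495, limma) was lost without 9 of the 11 single arrays (up to 0.132), without scaling between arrays (0.113), with 75th percentile scaling (0.318) and with the replicate block (0.0639), and the first probe at 0.05 ± 0.05 was not called.

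Dnajb9 (ERdj4), which restrains the stress sensor Ire1, stood at 1.00, 1.06 and 0.782 in the fed cerebellum and at 0.743 and 0.686 in the fasted one. Fed replicate 3 lay close to the fasted arrays, and the change was -0.39 ± 0.11 (adjusted p = 0.0396, limma). The call was lost without 10 of the 11 single arrays (adjusted p up to 0.179), and without fed replicate 3, the exception, adjusted p was 0.0013. The second Dnajb9 probe stood at -0.33 ± 0.15 and was not called. Dnajb14, a J protein of the ER membrane that works with Dnajb12, stood at 0.992, 1.06 and 1.00 fed and 1.29 and 1.32 fasted in cerebellum, a rise of 0.36 ± 0.06 (adjusted p = 0.00246, limma). In hypothalamus it stood at 1.08, 0.972 and 1.00 fed and at 0.924, 0.876 and 0.889 fasted, a change of -0.18 ± 0.05 (adjusted p = 0.0476, limma). That fall was lost without any 1 of the 11 arrays (0.0542 to 0.132) and with the replicate block (0.0652), whereas the rise in cerebellum held without any of them. Dnajb12 was not called at 0.06 ± 0.06 and 0.22 ± 0.07.

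Dnajb11 (ERdj3) and Dnajc3 (P58IPK), both luminal partners of the Hsp70 of the ER, were called in neither region. Dnajb11 stood at -0.08 ± 0.10 in hypothalamus and -0.12 ± 0.11 in cerebellum, and Dnajc3 at -0.15 ± 0.14 and 0.03 ± 0.15. On the cerebellum arrays Dnajc3 was 1.00, 1.17 and 0.776 fed and 1.08 and 0.903 fasted, so the fasted values lay inside the fed range. Dnajc1, an ER membrane J protein, had probes at -0.03 and -0.15 in hypothalamus and -0.23 and 0.13 in cerebellum, and none was called. With the replicate block the first of them was called in cerebellum (-0.31, adjusted p = 0.00905, limma).

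Promoters of 3 ER members, and a site of a 4th, are printed because genes of the ER stress response are known to carry ER stress elements. They come from RefSeq (GRCm38.p6), with 250 bases before the start for Dnajb9 at chr12:44210069-44210318, minus strand, Dnajc10 at chr2:80315216-80315465, plus strand and Dnajc3 at chr14:118937682-118937931, plus strand. For Dnajb11, 30 bases around a match are given, at chr16:22857843-22857872, plus strand, which start 2 bases before the transcript start. Capitals mark an ER stress element in Dnajc3, its second form in Dnajb11, and separate CCAAT and CCACG strings in Dnajb9. Dnajc3 holds further CCAAT and CCACG strings that are not marked, and Dnajc10 has none of the strings searched.
Dnajb9: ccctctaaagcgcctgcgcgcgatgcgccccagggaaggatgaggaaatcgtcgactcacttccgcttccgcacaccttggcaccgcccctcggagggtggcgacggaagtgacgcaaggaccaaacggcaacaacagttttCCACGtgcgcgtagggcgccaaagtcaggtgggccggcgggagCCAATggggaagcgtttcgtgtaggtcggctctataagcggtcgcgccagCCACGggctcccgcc
Dnajc10: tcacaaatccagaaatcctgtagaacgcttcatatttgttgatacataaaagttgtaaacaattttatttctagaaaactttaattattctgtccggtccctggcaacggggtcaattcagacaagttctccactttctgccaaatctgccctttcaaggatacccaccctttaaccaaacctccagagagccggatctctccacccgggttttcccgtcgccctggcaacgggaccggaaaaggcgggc
Dnajc3: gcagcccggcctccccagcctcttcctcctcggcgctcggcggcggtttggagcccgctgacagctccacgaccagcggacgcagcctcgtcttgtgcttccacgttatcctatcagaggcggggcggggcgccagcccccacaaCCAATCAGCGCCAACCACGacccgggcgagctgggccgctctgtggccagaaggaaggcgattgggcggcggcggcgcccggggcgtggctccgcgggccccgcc
Dnajb11: ccggcggcgATTGGCCCACGcctggctgct
The ER stress element was searched as CCAAT followed by any 9 bases and CCACG. It was found in 1 of the 35 genes, Dnajc3, and in 0.119% of all promoters. The second form was searched as ATTGG followed by any 1 base and CCACG, and was found in 1 of 35, Dnajb11, and in 0.0365% of all promoters. Both forms contain CCACG, and CCAAT on one strand or the other, so their matches also count under those strings. CCACG alone was found in 20 of 35 genes (57.1%) and 32.8% of all promoters. The windows of the 35 genes had a median GC content of 62%, against 52.7% over the table. The ER members with a full element in the window were the uncalled Dnajc3 and Dnajb11, and the fallen Dnajb9 and Dnajc10 held none there.

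Mitochondrial members were Dnaja3, Dnajc11, Dnajc15, Dnajc19, Dnajc28 and Dnajc30, with 1 probe each. In hypothalamus 0 of 6 were called (limma; 0 at an unadjusted p under 0.05, smallest adjusted p 0.203), and in cerebellum 2 fell and 0 rose. Dnajc28 stood at 1.00, 1.02 and 0.991 in the fed cerebellum and at 0.684 and 0.690 in the fasted one, which lie far apart. The change was -0.54 ± 0.06 (adjusted p = 0.000446, limma). Dnaja3 (Tid1), a class A cochaperone of mitochondrial Hsp70, stood at 1.00, 1.07 and 0.928 fed and at 0.724 and 0.719 fasted, a change of -0.47 ± 0.09 (adjusted p = 0.00755, limma). Both calls held without any 1 of the 11 arrays. In hypothalamus Dnaja3 was 1.04, 0.968 and 1.00 fed and 0.989, 1.24 and 1.10 fasted, and its pools overlapped. Dnajc19, a part of the inner-membrane import motor, stood at 0.00 ± 0.08 and 0.17 ± 0.09, and its relative Dnajc15 at -0.11 ± 0.07 and -0.03 ± 0.08. Dnajc11, a protein of cristae organisation, stood at -0.23 ± 0.12 and -0.28 ± 0.13, and Dnajc30 at -0.09 ± 0.07 and 0.03 ± 0.08, with neither called.

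Members of vesicles and endosomes were Dnajc5, Dnajc5b, Dnajc5g, Dnajc6, Dnajc13 and Dnajc27, with 8 probes. In hypothalamus 1 rose and 1 fell, and in cerebellum 1 fell. Dnajc5, the cysteine string protein of synaptic vesicles, has 3 probes, at -0.17 ± 0.04 (adjusted p = 0.0375, limma), -0.22 ± 0.11 and -0.12 ± 0.05 in hypothalamus, of which the first was called. That probe stood at 1.00, 0.966 and 1.00 fed and at 0.911, 0.879 and 0.851 fasted. The call was lost without 8 of the 11 single arrays (up to 0.12) and with the replicate block (0.0506), and in cerebellum the 3 probes stood at -0.02, -0.18 and -0.11 with none called. Dnajc6, the neuronal auxilin, was 1.04, 1.00 and 0.851 in the fed cerebellum and 0.672 and 0.717 in the fasted one, a change of -0.47 ± 0.14 (adjusted p = 0.0455, limma; lost without 8 of the 11 single arrays, up to 0.197). In hypothalamus its fasted arrays spread widely, at 0.941, 0.820 and 0.664 against 1.08, 1.00 and 0.948, and the change of -0.33 ± 0.13 was not called (adjusted p = 0.108, limma; 0.032 with the replicate block). Dnajc5g, a testis relative of Dnajc5, stood at 0.929, 1.00 and 1.17 fed and 1.22, 1.30 and 1.44 fasted in hypothalamus, a rise of 0.36 ± 0.09 (adjusted p = 0.0351, limma). It was lost without 6 of the 11 single arrays (up to 0.112) and with 75th percentile scaling (0.0973). In cerebellum Dnajc5g stood at 0.24 ± 0.10 and was not called (adjusted p = 0.139, limma; 0.0219 with the replicate block). Dnajc13, which acts on endosomes, stood at 0.05 ± 0.05 and -0.18 ± 0.06, Dnajc27 at -0.10 ± 0.07 and 0.12 ± 0.08, and Dnajc5b at 0.49 ± 0.32 and -0.06 ± 0.35, and none was called.

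Nuclear and ribosome-bound members were Dnajc2, Dnajc8, Dnajc9, Dnajc17 and Dnajc21, with 6 probes, of which 1 fell in hypothalamus and the same probe rose in cerebellum. Dnajc17, a nuclear J protein tied to splicing, stood at 1.01, 0.999 and 1.00 fed and at 0.870, 0.853 and 0.897 fasted in hypothalamus, a change of -0.20 ± 0.04 (adjusted p = 0.0153, limma; 0.0562 without fasted replicate 2). In cerebellum it stood at 1.02, 1.00 and 0.968 fed and 1.08 and 1.14 fasted, a rise of 0.16 ± 0.05 (adjusted p = 0.0398, limma). The rise in cerebellum was lost without 9 of the 11 single arrays (up to 0.227), with the replicate block (0.0739), without scaling between arrays (0.102) and with 75th percentile scaling (0.733). Dnajc2, a ribosome-associated J protein, had probes at -0.08 and 0.16 in hypothalamus and -0.03 and 0.06 in cerebellum, and none was called. Dnajc8, Dnajc9 and Dnajc21 were not called either.

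Of the remaining members, Dnajc24, a J protein of diphthamide synthesis, stood at 1.00, 0.962 and 1.22 fed and 1.28, 1.5 and 1.78 fasted in hypothalamus. The rise of 0.51 ± 0.13 (adjusted p = 0.0309, limma) was the largest called among the DnaJ probes there, and it was lost without fed replicate 1 or 2 or fasted replicate 2 or 3 (up to 0.099). In cerebellum Dnajc24 stood at 1.00, 0.975 and 1.08 fed and at 1.24 and 1.32 fasted, which do not overlap either. The change of 0.33 ± 0.14 there was not called (adjusted p = 0.141, limma), but it was in the fit of the cerebellum arrays alone (0.0453) and with the replicate block (0.0158). Dnajc14, which serves the export of receptors from the ER, was 0.966, 1.00 and 1.09 fed and 0.872 and 0.843 fasted in cerebellum, a change of -0.25 ± 0.07 (adjusted p = 0.0308, limma; lost without fed replicate 2 or 3 or either fasted array of the cerebellum, up to 0.141, and 0.0522 with the replicate block). Among members known from testis, Dnajb3 rose in cerebellum by 0.27 ± 0.05 (adjusted p = 0.00678, limma), from 1.00, 1.07 and 0.970 fed to 1.2 and 1.25 fasted. It was lost without fasted replicate 2 (0.0514) and with 75th percentile scaling (0.0963). Dnajb7, Dnajb8 and both Dnajb13 probes were called in neither region (the second Dnajb13 probe in cerebellum with the replicate block, 0.26, adjusted p = 0.0117, limma), and neither were Dnajc4, Dnajc16 and Dnajc18, which lay between -0.16 and 0.15 in both. Dnajc22 varied most in hypothalamus, at 1.11, 1.00 and 0.755 fed and 1.59, 0.271 and 7.79 fasted, where the pools overlap and the change of 0.67 ± 0.96 was not called. In cerebellum it stood at 1.33, 1.00 and 0.997 fed and at 3.41 and 4.62 fasted, which do not overlap. That change of 1.85 ± 1.07, the largest of the 53 probes, was not called with a spread shared by all 11 arrays (adjusted p = 0.269, limma) and was called in the fit of the cerebellum arrays alone (adjusted p = 0.0104, limma). Leaving Dnajc22 aside, the uncalled probes outside the 17 lay between -0.30 and 0.49 in hypothalamus and between -0.33 and 0.22 in cerebellum.

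Dnajc12, a cochaperone of the aromatic amino acid hydroxylases that make serotonin and dopamine precursors, gave opposite results from its pair of probes. In cerebellum the first probe stood at 1.01, 0.970 and 1.00 fed and at 0.704 and 0.806 fasted, a change of -0.40 ± 0.06 (adjusted p = 0.00181, limma). The second stood at 1.00, 1.00 and 0.905 fed and at 1.40 and 1.14 fasted, a change of 0.38 ± 0.09 (adjusted p = 0.0133, limma; 0.0935 without fasted replicate 1). Both were called and neither overlaps between the pools, so no direction can be given for Dnajc12 as a gene; the mean of the probes was -0.01. Of the 9 genes with more than 1 probe, Dnajb13, Dnajb6, Dnajc12 and Dnajc2 had probes of opposite sign in both regions and Dnajc1 in cerebellum. Among these, Dnajc12 in cerebellum was the one case where both signs were called. The probes of Dnajb4, Dnajb9, Dnajc10 and Dnajc5 shared their sign in both regions. With 1 probe per gene, the one of smallest residual SD, 6 of 43 genes were called in hypothalamus (14%, against 15.3% of 18048 genes), 12 in cerebellum (27.9%, against 22.3%) and 8 in the difference between regions (18.6%, against 19.1%, of which 11.4% positive and 7.74% negative). With the mean of a gene's probes the counts were 6, 11 and 9.

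**Figure D3:**
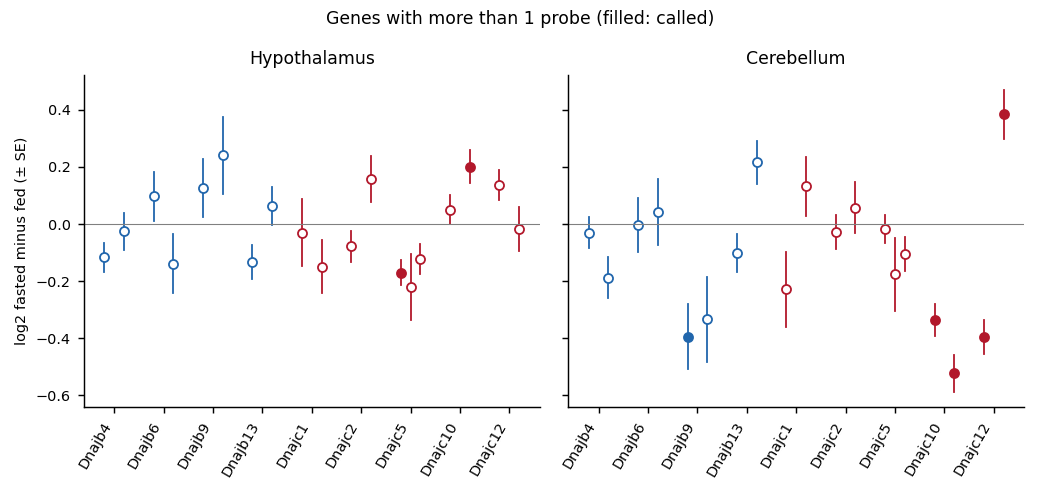
Change with fasting (log2 fasted minus fed, vertical axis, bars ± SE) of each probe of the 9 DnaJ genes with more than 1 probe, hypothalamus left and cerebellum right, class B in blue and class C in red; filled points were called. The pair of Dnajc12 probes lies at -0.40 and 0.38 in cerebellum, and the Dnajc10 pair at -0.34 and -0.52.

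The difference of the fasting change between regions, hypothalamus minus cerebellum, was called for 10 of 53 probes (18.9%, against 17.7% of all probes), 7 positive and 3 negative (8.66% and 9.01% of all probes). The positive ones were more negative in cerebellum, led by the second Dnajc10 probe (0.72 ± 0.09, adjusted p = 0.00076, limma), Dnaja3 (0.61 ± 0.13), the first Dnajc12 probe (0.53 ± 0.08) and Dnajb9 (0.52 ± 0.15). Dnajc28 (0.47 ± 0.09), the first Dnajc10 probe (0.39 ± 0.08) and Dnajb5 (0.38 ± 0.08) followed, the last of which fell in both regions and further in cerebellum. The negative ones were Dnajb14 (-0.54 ± 0.08), the second Dnajc12 probe (-0.40 ± 0.12) and Dnajc17 (-0.36 ± 0.06), which were higher in cerebellum than in hypothalamus relative to the fed pools. Of the 10 calls, 8 held without any 1 of the 11 arrays, and those of Dnajb9 (up to 0.137) and the second Dnajc12 probe (up to 0.132, and 0.0588 with the replicate block) were each lost without 10 of them. With quantile normalization 0 of 10 held (limma; 4 DnaJ probes at an unadjusted p under 0.05), and 0.437% of all probes were called. For the reason given above, that count does not decide whether a call would hold.

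**Figure D4:**
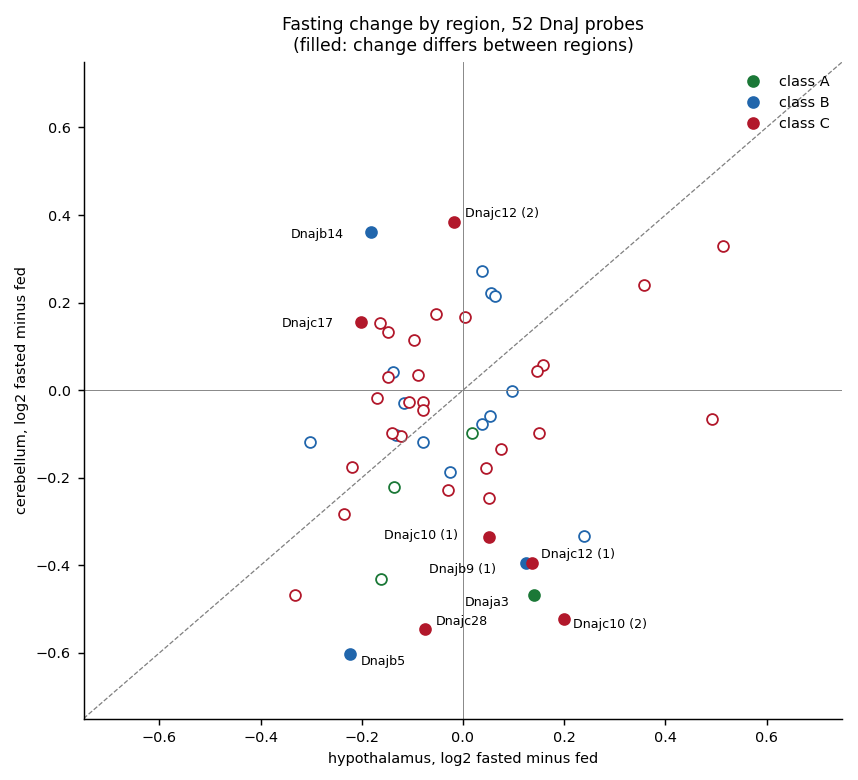
Fasting change in cerebellum (vertical, log2) against hypothalamus (horizontal, log2) for 52 DnaJ probes, coloured by class; filled, labelled points are the 10 whose change differed between regions, the dashed line marks equal change, and Dnajc22 (0.67 and 1.85) lies outside the axes. Most labelled points lie below the line, with Dnajb14, Dnajc17 and the second Dnajc12 probe above it.

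Genes that work with J proteins were set beside them, 1 probe per gene. Of 15 measured Hsp70 family genes, 1 rose and 2 fell in hypothalamus, and 1 rose and 8 fell in cerebellum, against 5.96% of genes called higher and 9.38% lower in hypothalamus and 6.69% and 15.7% in cerebellum. In hypothalamus Hspa1b (-0.35 ± 0.05) and Hspa4l (-0.25 ± 0.07) fell and Hspa12a (0.23 ± 0.06, another probe at -0.13 ± 0.09 and not called) rose. Hyou1 (-1.34 ± 0.09), Hspa5 (-0.84 ± 0.09), Hsph1 (-0.82 ± 0.13) and Hspa4l (-0.65 ± 0.08) had the most negative values in cerebellum. Hspa5 is the ER Hsp70 that Dnajb9, Dnajb11, Dnajc3 and Dnajc10 serve, and it stood at -0.06 ± 0.08 in hypothalamus. The mitochondrial Hsp70 Hspa9, partner of Dnaja3, and the constitutive cytosolic Hspa8 were picked after their values were seen. Hspa9 stood at 0.01 ± 0.06 in hypothalamus and fell by 0.32 ± 0.07 in cerebellum, and Hspa8 was not called at 0.28 ± 0.09 and 0.07 ± 0.10. Hspa13, counted among the 8 in cerebellum at -0.19 ± 0.05, has other probes there at -1.17 ± 0.11 and 0.22 ± 0.06, both called, so its probes disagree.

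The lists that follow stand against the same shares of all genes. These were 5.96% called higher and 9.38% lower in hypothalamus, and 6.69% and 15.7% in cerebellum. Of 8 measured nucleotide exchange factors, which reset Hsp70 after the J protein step, Hspbp1 fell in hypothalamus (-0.26 ± 0.04) and Sil1, the exchange factor of the ER Hsp70, rose in cerebellum (0.34 ± 0.07). Of 12 Hsp90 genes and cochaperones 3 fell in hypothalamus and 4 in cerebellum and 0 rose in either, among them Chordc1 (-0.56 ± 0.05 and -0.41 ± 0.06), St13 (-0.31 ± 0.07 and -0.47 ± 0.08) Ahsa1 (-0.28 ± 0.05 in hypothalamus), and Ptges3 (-0.63 ± 0.08) and Hsp90b1 (-0.44 ± 0.11) in cerebellum. Of 3 J proteins with other names, Hscb of iron-sulfur cluster assembly rose in cerebellum (0.35 ± 0.11), and Gak was not called. Sec63, a J protein of the ER translocon, was not called on the probe chosen for the list (0.05 ± 0.06 in cerebellum), but its other probe fell there (-0.30 ± 0.09, adjusted p = 0.0418, limma). Of 15 measured genes of the ER unfolded protein response outside the DnaJ names, 5 fell in hypothalamus and 10 in cerebellum. Among the 10, Hspa5, Hyou1 and Hsp90b1 were already counted above in the Hsp70 or Hsp90 list, on the same probes. The shares of all genes called lower were 9.38% and 15.7%. In either region 0 of the 15 rose, and their medians were -0.15 and -0.31. Sdf2l1 (-0.43 ± 0.05), Creld2 (-0.26 ± 0.06), Xbp1 (-0.24 ± 0.07) and Pdia4 (-0.23 ± 0.05) led in hypothalamus. Canx (-1.26 ± 0.06, another probe not called) and Pdia4 (-0.82 ± 0.06) stood beside Hspa5 and Hyou1 in cerebellum. Set beside them, the 7 listed ER DnaJ genes, 1 probe each, had medians of -0.08 in hypothalamus and 0.03 in cerebellum. Over their 10 probes the medians were 0.01 and -0.17, so the sign in each region depends on the probes used. Outside that list, Dnajc14, Dnajc16 and Dnajc18 stood at 0.05, 0.08 and -0.14 in hypothalamus. In cerebellum they stood at -0.25, -0.14 and -0.10, of which the change of Dnajc14 was called.

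Markers of other regions and cell types moved in the same pools, and their part in the DnaJ changes was not tested. Each marker is counted by 1 probe, the one of smallest residual SD, and levels are the mean scaled ratio of a list, as the range over arrays. Over all genes 5.96% were called higher and 9.38% lower in hypothalamus, and 6.69% and 15.7% in cerebellum. In hypothalamus 7 of 8 thalamus markers fell, from 0.956 to 1.05 in the fed pool to 0.717 to 0.742 in the fasted one. Their other probes there did not all follow. Those of Plekhg1 (-0.39 ± 0.06) and 1 of Ntng1 (-0.31 ± 0.06) fell. Those of Prkcd (-0.12 ± 0.09), Synpo2 (-0.12 and 0.00), Rora (0.03 ± 0.05), Lef1 (0.15 ± 0.06) and another of Ntng1 (-0.06 ± 0.13) were not called. In cerebellum 3 of the 8 fell (0.994 to 1.01 fed, 0.916 to 0.925 fasted). Of 5 granule cell markers 3 rose and 1 fell in hypothalamus (0.963 to 1.27 fed, 1.58 to 1.64 fasted), and 2 of 4 Purkinje cell markers rose (0.940 to 1.01 fed, 1.51 to 1.58 fasted). The other 2 Purkinje cell markers lay below 0 there, and the list had a median change of 0.28 and a largest of 1.54. Among other probes in hypothalamus, that of Cbln3 rose (1.88 ± 0.08). Those of Car8 (0.09 ± 0.07), Calb1 (0.05 ± 0.06) and Fat2 (-0.20 ± 0.67) were not called. In cerebellum 0 of the granule and Purkinje cell markers were called on the chosen probes (limma; 0 at an unadjusted p under 0.05), while other probes of the granule cell marker Cbln3 (-0.81 ± 0.09) and the Purkinje cell marker Car8 (-0.44 ± 0.08) fell.

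Of 4 pituitary markers 1 rose and 1 fell in hypothalamus (1.00 to 1.05 fed, 3.60 to 3.97 fasted), and 2 rose in cerebellum (1.01 to 1.05 fed, 3.29 to 3.37 fasted). In hypothalamus that mean rests on 1 gene, Prl (3.60 ± 0.06), and the median change of the list was 0.08. In cerebellum it rests on Prl (3.07 ± 0.07) and Pomc (1.32 ± 0.05). Of 5 astrocyte markers 1 fell in hypothalamus (0.973 to 1.02 fed, 0.941 to 0.959 fasted) and 3 in cerebellum (0.989 to 1.02 fed, 0.768 to 0.794 fasted). One of the 3 is Aqp4 (-0.18 ± 0.05), whose other probe rose in cerebellum (0.41 ± 0.07), whereas both fell in hypothalamus.

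Of 4 choroid plexus markers 1 rose and 1 fell in hypothalamus (0.974 to 1.05 fed, 0.923 to 0.973 fasted), the latter being Ttr (-0.81 ± 0.06), and 3 fell in cerebellum (0.946 to 1.02 fed, 0.767 to 0.813 fasted). Of 5 markers of pericytes and meninges 3 rose in hypothalamus (0.960 to 1.02 fed, 1.15 to 1.22 fasted) and 2 fell in cerebellum (0.922 to 1.01 fed, 0.755 to 0.759 fasted). Oligodendrocyte markers fell for 2 of 7 in hypothalamus (0.989 to 1.05 fed, 0.836 to 0.890 fasted) and 3 of 7 in cerebellum (0.982 to 1.06 fed, 0.893 to 0.898 fasted). Microglia markers fell for 2 of 4 in hypothalamus (0.975 to 1.03 fed, 0.889 to 0.955 fasted) and 0 of 4 were called in cerebellum (limma; 1 at an unadjusted p under 0.05). Of the 6 hypothalamus markers 0 were called in either region (limma; 0 and 2 at an unadjusted p under 0.05). The lowest deposited ratio of any probe is 0.01, so a search for markers at 0 says nothing on their detection, and ratios give no level. Marker genes named here were chosen after their values were seen.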

How the data were processed

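RNA pools of hypothalamus and cerebellum from fed and fasted mice were measured on 11 CodeLink arrays. The authors deposited linear ratios with a median of 1 over the fed arrays of the region (34999 of 34999 probes in both regions, tolerance 1e-06). The scanner software, the background correction and any earlier scaling: not given in the sources used here. The number of arrays limits the precision.

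Arrays were scaled to equal medians, a floor of 0.1 was applied, and values were turned to log2. Group means over all 11 arrays were fitted with limma 3.58.1 (R 4.3.3), with 7 residual degrees of freedom. The fit was tested on simulated data. Symbols came from the platform annotation, and 53 of 53 member probes matched RefSeq by Entrez identifier. Alternatives were a replicate block, other scalings, floors, filters and variance priors, fits of single regions, single arrays left out, probe means and pools as units.

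Members and lists were chosen with earlier results of these data known. The text gives per-array values for members called in any comparison and, from other lists, up to 4 called genes with the largest change, with exceptions stated.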

Additional observations from a re-analysis of the deposited data

Results flagged for a closer look

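The fasting change differed between hypothalamus and cerebellum by the limma interaction test for 10 DnaJ probes, given as hypothalamus change minus cerebellum change. The values were 0.72 for the second Dnajc10 probe, 0.39 for the first Dnajc10 probe, 0.61 for Dnaja3, 0.53 for the first Dnajc12 probe, 0.52 for Dnajb9, 0.47 for Dnajc28 and 0.38 for Dnajb5. They were -0.54 for Dnajb14, -0.40 for the second Dnajc12 probe and -0.36 for Dnajc17. The adjusted p ran from 0.00076 for the second Dnajc10 probe to 0.0477 for Dnajb9. For Dnajb14, Dnajc17 and the second Dnajc10 probe the called changes had opposite signs in the 2 regions. They were -0.18 in hypothalamus against 0.36 in cerebellum, -0.20 against 0.16, and 0.20 against -0.52. The hypothalamus call of Dnajb14 was lost without any 1 of the 11 arrays, and that of the second Dnajc10 probe without 9 of them. The cerebellum call of Dnajc17 was also lost without 9 of the 11. No group has 4 arrays, so single arrays were not tested as outliers.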

How the results depend on the processing

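Under the alternatives run, none of the 31 calls of DnaJ probes (7 in hypothalamus, 14 in cerebellum, and 10 between regions) changed sign. By limma the counts became 0, 0 and 0 under quantile normalization (1, 7 and 4 at an unadjusted p under 0.05), which gives every array the same spread. Of all 34999 probes it called 32, 441 and 153 (0.0914%, 1.26% and 0.437%), so the DnaJ counts of 0 are near the array shares. Before quantile normalization, the interquartile range of the log2 ratios was 0.02 to 0.10 on fed arrays and 0.24 to 0.31 on fasted arrays. Ratios to the fed median hold fed arrays near 1, so these counts cannot decide whether a call would hold. The cause was not tested further. With 75th percentile scaling the DnaJ counts were 17 in hypothalamus and 24 in cerebellum, 1 and 2 of them higher against 3 and 4 as reported. Of all probes 26.4% and 31.7% were called under it, against 14.2% and 20.9% as reported. Their median change shifted to -0.11 and -0.12. This scaling lowers fasted arrays more than fed ones on average, so the balance of higher and lower calls moves with it. The difference between regions had 11 (17.9% of all probes were called), and the cause was not tested. In fits of only the groups compared the counts were 0 in hypothalamus (14 at an unadjusted p under 0.05) and 10 in cerebellum, of which 8 were among the 14. These fits called 6.31% and 14% of all probes. With the replicate block added to these fits the DnaJ counts were 0 in hypothalamus and 0 in cerebellum (14 and 19), where 48 and 0 of all probes were called. In the fit of all arrays the replicate block gave 5, 16 and 10 (15.6%, 20.9% and 17% of all probes were called), with 4, 12 and 9 shared with the reported calls. It ended 3, 2 and 1 calls and added 1 in hypothalamus (Dnajc6), 4 in cerebellum (Dnajb13, Dnajc1, Dnajc24 and Dnajc5g) and 1 between regions (Dnajc1). Whether the numbers pair the arrays is not settled: deviations of same-numbered arrays had a Pearson correlation of -0.04 to 0.10, under the 0.1 taken as the limit, while by Spearman the 3 same-numbered hypothalamus pairs had 0.169, 0.116 and 0.187 and the 6 others -0.15 to -0.02. The same-numbered cerebellum pairs had 0.05 and -0.07 by Spearman, and the others there -0.09 to 0.09. Deviations sum to 0 within a group, so same-numbered and other pairs are not independent. Without 1 array the count ran from 0 to 6 in hypothalamus, from 8 to 14 in cerebellum and from 8 to 10 for the difference. Calls over all probes then ran from 1940 to 5438, 4540 to 7549 and 4351 to 6307, against 4980, 7302 and 6184 as reported. Of the DnaJ calls 0 of 7, 7 of 14 and 8 of 10 held without any 1 array. Averaged over both regions 12 DnaJ probes were called with arrays as units, and with pools as units 0 (limma, 1 residual degree of freedom; 3 at an unadjusted p under 0.05). Over all probes 7956 and 0 were called. The floor of 0.01, no scaling, the filter on extreme ratios and both other variance priors kept each count within 1.5 times. Ratios hold no signal over background, so dim probes could not be set apart.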
